A study of Mus musculus with 48 samples.

Results

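The genes described here mark tissue macrophages and the presentation of antigen on MHC class II molecules. They came from a list of 31 names, drawn up with earlier results of these data known, of which 29 matched 1 of the 27179 genes in the count table. The other 2 entries, Lyve1-off and Maf-off, matched no gene. By role the 29 genes comprise 13 general macrophage and myeloid genes, the 3 chains of complement C1q, 4 genes of fetal-type and resident macrophages, 4 class II genes and 5 genes for ligands, chemokines and monocytes. Bulk RNA was sequenced from hindlimb muscles of 2 stages, fetal (embryonic day E18.5) and adult, of the inbred mouse strain FVB/NJ, and all animals were male. The adults were at postnatal day 56 by the series' design text, while the husbandry text gives an age of some months at purchase. Each of 6 animals per stage gave 4 muscles, so that 8 groups of 6 libraries were available, and the labels name no transgene, mutation or treatment in any of them. The shank muscles are the soleus and the gastrocnemius and the thigh muscles the vastus intermedius and the vastus lateralis. The submitters class the soleus and vastus intermedius as slow-biased and the other pair as fast-biased.

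Macrophages of resting tissues come from embryonic precursors and, to a degree that differs between tissues, from blood monocytes that arrive after birth. Their survival depends on the receptor Csf1r and its ligands Csf1 and Il34. Long-lived resident macrophages in many tissues carry Timd4, Folr2, Cd163 and Mrc1, receptors that take up dying cells, folate, haemoglobin and glycoproteins, whereas the class II genes load peptides for display to CD4+ T cells and are switched on by the transactivator Ciita. In skeletal muscle, macrophages sit in the connective tissue between fibres and clear debris during growth and repair.

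The 48 libraries held between 14935541 and 32383982 counts each, with a median of 22847528, and 3 counts corresponded to between 0.0926 and 0.201 CPM, a library's counts rescaled to a common total. Levels below are CPM scaled by edgeR's trimmed mean of M values (TMM), which corrects for a few very abundant genes. 1 adult vastus intermedius library, that of collection B (animals are lettered A to F within a stage by the date tag of their columns), held the embryonic myosin Myh3 at 8921 CPM, against 6.22 to 22.9 CPM in the other 5 adult libraries of that muscle, and was left out of every result unless stated. It also carried the E18.5 pattern of the genes described here, with Cd74 at 1.93 CPM, Retnla at 0, Cx3cr1 at 17.8 and Mrc1 at 117 CPM. Among the E18.5 vastus lateralis libraries, B held neutrophil transcripts (S100a9 at 37.8 CPM, against 0.519 to 6.27 CPM in the other 5) and E held adipocyte transcripts (Adipoq at 13.4 CPM, against 0 to 0.480 CPM). All 29 genes were read in bulk tissue, where fewer cells of a type and less RNA per cell cannot be told apart. Stage cannot be told apart from the dates of collection, since no date holds both stages. Macrophage RNA was present throughout: Csf1r and Adgre1 had counts in all 48 libraries.

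From E18.5 to the adult, H2-Aa, H2-Ab1, Cd74 and Retnla rose and Mrc1 and Cx3cr1 fell in all 4 muscles, while other macrophage genes were called in different directions. In gastrocnemius 8 of the 27 members tested were higher in adults and 13 lower, where 82.2% of all genes tested were called, 38.2% higher and 44% lower. In soleus the counts were 14 higher and 5 lower of 27 (background 76%, as 36.3% and 39.7%), in vastus lateralis 7 and 11 of 26 (79%, as 36.4% and 42.6%), and in vastus intermedius 10 and 9 of 27 (76.1%, as 36.9% and 39.2%). With most genes of the genome called, these shares are read as counts only. Over the 4 muscles, 7 members were higher in all 4 (Lyz2, Cd163, H2-Aa, H2-Ab1, Cd74, Retnla and Timd4), 5 were lower in all 4 (Adgre1, Mrc1, Cx3cr1, Fcgr1 and Aif1), and 3 were called higher in 1 muscle and lower in another (Cd68, Csf1r and C1qc). The median log2 change over the members tested was -0.39, 0.42, -0.67 and -0.15 in gastrocnemius, soleus, vastus lateralis and vastus intermedius, beside -0.12, -0.06, -0.15 and -0.04 over all genes tested. Scaling by total counts without TMM moves that median of all genes to -1.21, -0.75, -1.20 and -0.80, and every direction given below is relative to the TMM scaling unless stated.

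**Figure D1:**
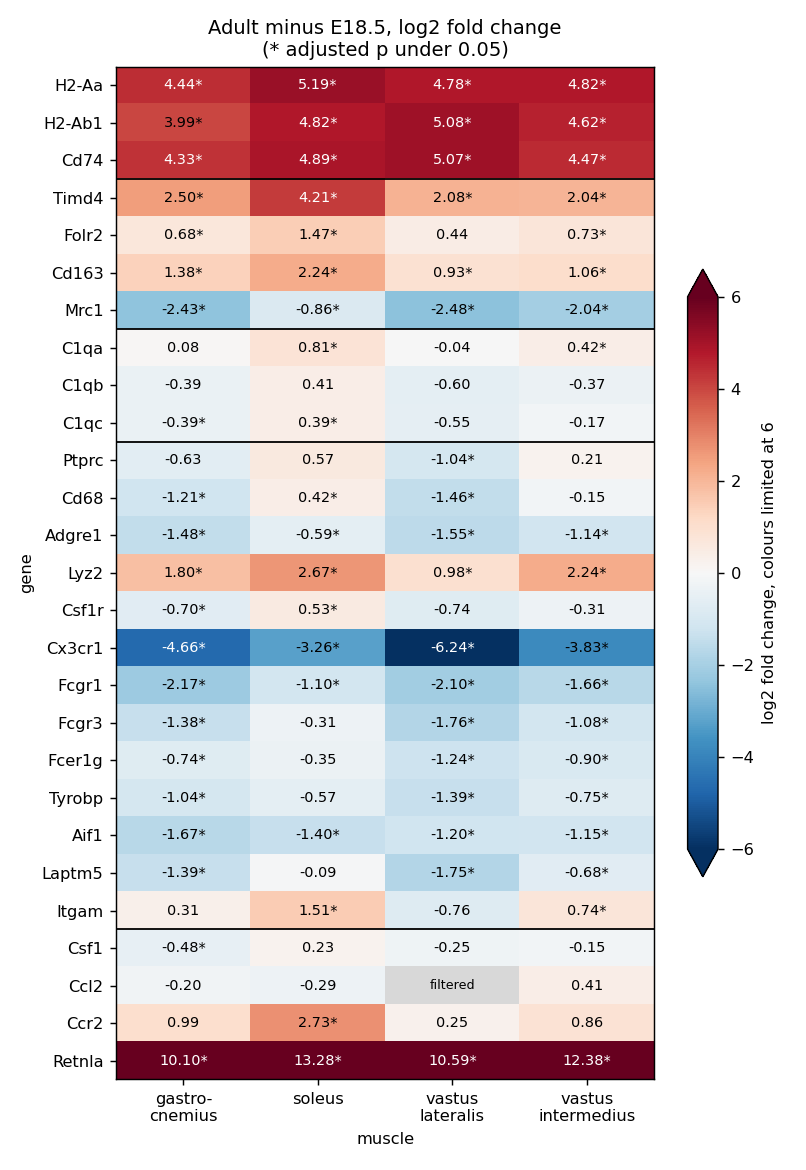
Log2 fold changes from E18.5 to adult for the 27 genes that passed the low-count filter in at least 1 muscle, 1 row per gene grouped by role and 1 column per muscle, with an asterisk at an adjusted p under 0.05. H2-Aa, H2-Ab1, Cd74 and Retnla are positive in every column, Cx3cr1 and Mrc1 negative in every column, and with TMM scaling Cd68 and Csf1r change sign between soleus and gastrocnemius.

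Of the 4 class II genes, 3 rose in all 4 muscles and H2-Eb1 was too low to test. H2-Aa and H2-Ab1 encode the alpha and beta chains of the class II molecule I-A, H2-Eb1 encodes the beta chain of I-E, and Cd74 encodes the invariant chain that holds the groove until a peptide is loaded. H2-Ab1, H2-Aa and H2-Eb1 lie within 53.4 kb of chromosome 17 (mm10, chr17:34263227-34316674). The promoters of class II genes share an X box, bound by the RFX complex, and a Y box with an inverted CCAAT, bound by NF-Y. Both motifs are visible in the stretches from 180 to 21 bases before the annotated starts of H2-Aa (chr17:34287844-34288003, minus strand) and H2-Eb1 (chr17:34305687-34305846, plus strand), which are printed to show this shared arrangement beside the genes' values. The sequences are from RefSeq, assembly GRCm38.p6, with GCAAC and CTGATTGG in capitals:
H2-Aa: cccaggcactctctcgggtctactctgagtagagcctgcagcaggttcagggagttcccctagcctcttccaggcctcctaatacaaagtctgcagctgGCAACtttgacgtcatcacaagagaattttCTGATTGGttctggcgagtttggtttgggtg
H2-Eb1: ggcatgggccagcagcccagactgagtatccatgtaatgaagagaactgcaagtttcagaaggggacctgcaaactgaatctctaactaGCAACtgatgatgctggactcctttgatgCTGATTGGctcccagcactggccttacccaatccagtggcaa
The 2 motifs were separated by 25 bases in H2-Aa and by 24 bases in H2-Eb1. Searched on both strands of windows from 250 bases before to 50 bases after each gene's start, GCAAC followed by CTGATTGG on the same strand with 15 to 40 bases between occurred in 40 of 32851 windows (0.122%), 2 of which belong to these genes. These 2 spellings were chosen after the windows had been read. Of the 29 genes, 22 had a window. H2-Ab1 had none, and Cd74 was not among the genes found with any motif searched here. The arrangement was therefore seen for H2-Aa and H2-Eb1 only. Some genes have more than 1 window, so single motifs were counted by gene, as held in any of its windows. The Y box core ATTGG, which CTGATTGG contains, occurred in 41.1% of all 27025 genes with a window and in 8 of the 22 genes. AGCAAC, the X box core searched at first, occurred in 16.7% of all genes and 3 of the 22 (Cd163, Cd68 and H2-Eb1), so not in H2-Aa. The shorter GCAAC marked above occurred in 38.6% and 7, and CTGATTGG in 4.7% and 2. The macrophage factor PU.1's core GAGGAA occurred in 31.3% of all genes and 12 of the 22. TGCTGA, a part of the site bound by MAF factors, occurred in 21.7% and 9.

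Cd74 at E18.5 read 0.834, 1.66 and 2.38 CPM in gastrocnemius, 0.558, 1.15 and 1.97 in soleus, 0.917, 1.36 and 2.16 in vastus lateralis, and 1.12, 1.94 and 2.39 in vastus intermedius (lowest, median and highest of 6 libraries). In the adult it read 21.1, 37.7 and 51.8 CPM in gastrocnemius, 25.5, 32.8 and 55.4 in soleus, 24.6, 52.7 and 62.2 in vastus lateralis, and 28.9, 37.4, 40.4, 47.8 and 53.5 in vastus intermedius, where the last 5 values are the single libraries of that muscle. Every adult library was above every E18.5 library in all 4 muscles. The log2 fold changes were 4.33 ± 0.27, 4.89 ± 0.27, 5.07 ± 0.26 and 4.47 ± 0.20 (SE) in gastrocnemius, soleus, vastus lateralis and vastus intermedius, with edgeR adjusted p of at most 3.13e-10.

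H2-Aa at E18.5 read 0.0642, 0.183 and 0.659 CPM in gastrocnemius, 0, 0.133 and 0.293 in soleus, 0, 0.223 and 0.444 in vastus lateralis, and 0.0629, 0.169 and 0.428 in vastus intermedius, which is at or near the level of 3 counts. The adult values were 2.31, 5.33 and 9.57 CPM in gastrocnemius, 3.86, 5.25 and 7.59 in soleus, 3.86, 6.00 and 8.00 in vastus lateralis, and 3.84, 4.66, 5.61, 6.81 and 7.49 in vastus intermedius. The groups did not overlap, and the log2 fold changes were 4.44 ± 0.45, 5.19 ± 0.43, 4.78 ± 0.50 and 4.82 ± 0.37 (SE, same order of muscles), with edgeR adjusted p of at most 4.01e-07. Its partner chain H2-Ab1 lay at 0.0619, 0.127 and 0.212 CPM in gastrocnemius, 0, 0.0649 and 0.267 in soleus, 0, 0.0562 and 0.287 in vastus lateralis, and 0.0385, 0.111 and 0.357 in vastus intermedius at E18.5. In the adult H2-Ab1 reached 1.07, 1.86 and 4.26 CPM in gastrocnemius, 1.16, 2.71 and 4.14 in soleus, 1.46, 3.96 and 5.28 in vastus lateralis, and 1.51, 2.80, 4.18, 4.91 and 5.27 in vastus intermedius. The groups again did not overlap, and the log2 fold changes of H2-Ab1 were 3.99 ± 0.41, 4.82 ± 0.58, 5.08 ± 0.57 and 4.62 ± 0.48 (SE), with edgeR adjusted p of at most 1.8e-06. Because the E18.5 counts of both I-A chains were so few, the size of these fold changes depends on the prior count of the fit.

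H2-Eb1 stayed near the limit of counting. It had 0, 4, 2 and 0 counts over all E18.5 libraries of gastrocnemius, soleus, vastus lateralis and vastus intermedius, and 4, 9, 5 and 2 counts over the adult libraries, so that it did not pass the low-count filter in any fit. Its highest CPM in any library was 0.175. The ratio of adult to E18.5 counts per total counts was 2.41 in soleus (exact 95% interval 0.673 to 10.7, counting error only) and 2.62 in vastus lateralis (0.429 to 27.5). Reads were counted on mm10, a C57BL/6J assembly, and FVB/NJ carries other MHC alleles, so reads of divergent alleles may be lost at H2-Aa, H2-Ab1 and H2-Eb1 alike. How many were lost was not tested, and each gene is compared only with itself across groups. In the authors' deposited table of E18.5 against adult over all muscles, H2-Eb1 has a log2 difference of -2.43 and an adjusted p of 0.0125, so it too has H2-Eb1 lower at E18.5.

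Dendritic cells and B cells also carry class II molecules. Dendritic cell markers summed to 8.03 to 14.1 CPM at E18.5 and 11.7 to 22.5 CPM in adults. Of those tested, 2 of 2, 4 of 6, 1 of 3 and 4 of 4 were called higher, beside 38.2%, 36.3%, 36.4% and 36.9% of all genes. Most of that sum was Zbtb46, and which cells of the tissue carried it was not tested. Flt3 stayed at means of 0.0679 to 0.377 CPM in all 8 groups, and Cd209a, named after its values were seen, had means of 0.0154 to 0.0498 CPM at E18.5 and 1.51 to 2.51 CPM in adults. B cell markers summed to 0.364 to 1.60 CPM at E18.5 and 0.219 to 4.48 CPM in adults. T and NK cell markers summed to at most 1.79 CPM in any library, and Ly6c2 of classical monocytes had means of at most 0.188 CPM. Other genes on the monocyte list went both ways. In gastrocnemius, soleus, vastus lateralis and vastus intermedius, Nr4a1 rose by 4.44, 3.58, 3.44 and 3.61 on the log2 scale. Ace rose by 3.18, 3.85, 3.53 and 3.26. Plac8 fell in gastrocnemius (-1.58) and vastus intermedius (-2.87) and was not tested in the other muscles. Which cells carried these transcripts was not tested. The part of these cells in the class II levels was not tested.

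**Figure D2:**
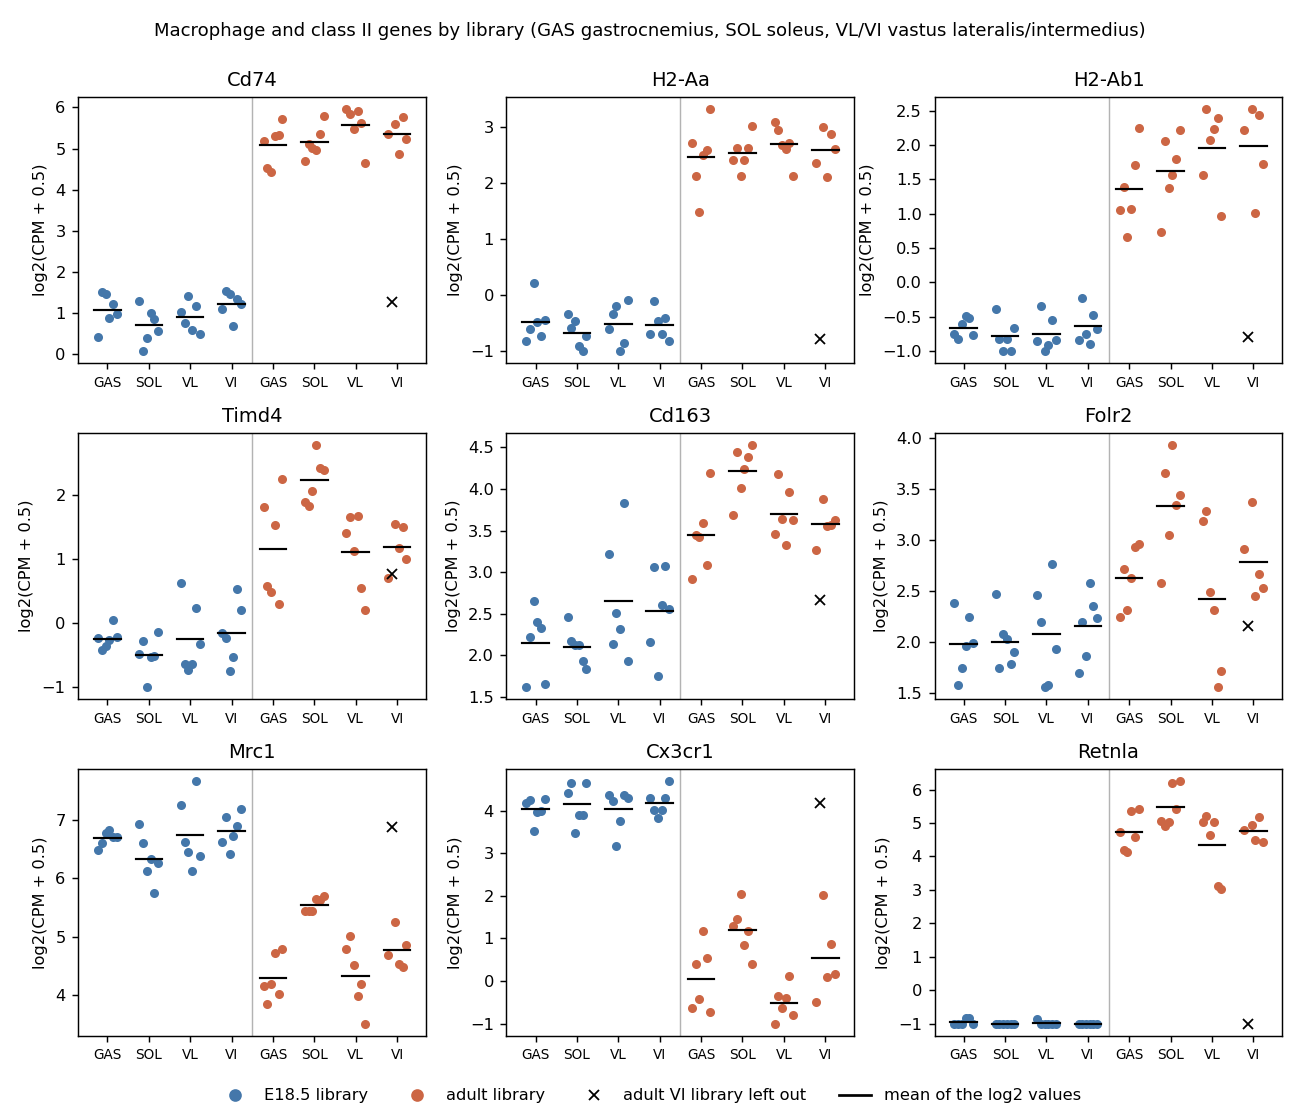
Values of 9 genes by library, as log2(CPM + 0.5), with E18.5 libraries in blue, adult libraries in orange and the black bar at the mean of the log2 values. Cd74, H2-Aa, H2-Ab1 and Retnla are higher in every adult library that was kept than in any E18.5 library, Mrc1 and Cx3cr1 are lower, and the crossed adult vastus intermedius library that was left out lies with the E18.5 libraries in all of these 6.

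The fetal-type genes did not move as 1 group. Timd4 and Cd163 rose in all 4 muscles, Folr2 rose in 3, and Mrc1 fell in all 4. Scaling by total counts turned Cd163 to -0.12 in vastus lateralis and Folr2 to -0.41 in gastrocnemius and -0.0175 in vastus intermedius. Only Mrc1 of these 4 genes was called higher in fetal than in adult muscle. Timd4, a receptor for phosphatidylserine on dying cells, read 0.248, 0.343 and 0.534 CPM in gastrocnemius, 0, 0.209 and 0.411 in soleus, 0.103, 0.220 and 1.04 in vastus lateralis, and 0.0956, 0.379 and 0.952 in vastus intermedius at E18.5. The adult values of Timd4 were 0.733, 1.70 and 4.26 CPM in gastrocnemius, 3.07, 4.20 and 6.39 in soleus, 0.656, 1.93 and 2.68 in vastus lateralis, and 1.13, 1.51, 1.76, 2.34 and 2.44 in vastus intermedius. The adult soleus libraries all lay above every E18.5 soleus library by a wide gap, while the ranges overlapped in vastus lateralis. Log2 fold changes of Timd4 were 2.5 ± 0.43, 4.21 ± 0.44, 2.08 ± 0.56 and 2.04 ± 0.46 (SE), with edgeR adjusted p of 5.86e-05, 3.46e-07, 0.00316 and 0.00116.

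Cd163, the scavenger receptor for haptoglobin-haemoglobin complexes, read 2.57, 4.34 and 5.80 CPM in gastrocnemius, 3.08, 3.85 and 4.99 in soleus, 3.31, 4.84 and 13.7 in vastus lateralis, and 2.87, 5.49 and 7.93 in vastus intermedius at E18.5. In adults Cd163 read 7.09, 10.3 and 17.7 CPM in gastrocnemius, 12.4, 19.4 and 22.6 in soleus, 9.56, 11.9 and 17.7 in vastus lateralis, and 9.11, 11.3, 11.4, 11.8 and 14.2 in vastus intermedius. Only in vastus lateralis did the ranges overlap, where the E18.5 library E reached 13.7 CPM. The log2 fold changes of Cd163 were 1.38 ± 0.24, 2.24 ± 0.17, 0.93 ± 0.31 and 1.06 ± 0.24 (SE), with edgeR adjusted p of 7e-05, 7.7e-09, 0.0142 and 0.00109. Folr2, a folate receptor of resident macrophages, read 2.48, 3.43 and 4.72 CPM in gastrocnemius, 2.86, 3.41 and 5.01 in soleus, 2.43, 3.70 and 6.30 in vastus lateralis, and 2.73, 4.14 and 5.46 in vastus intermedius at E18.5. Adult Folr2 read 4.22, 5.86 and 7.26 CPM in gastrocnemius, 5.47, 9.97 and 14.7 in soleus, 2.45, 4.79 and 9.20 in vastus lateralis, and 4.97, 5.27, 5.86, 7.02 and 9.82 in vastus intermedius. The change in vastus lateralis was 0.44 ± 0.35 (SE, edgeR adjusted p = 0.255) on the log2 scale, and in the other 3 muscles, where it rose, 0.68 ± 0.19, 1.47 ± 0.22 and 0.73 ± 0.22 (SE) in gastrocnemius, soleus and vastus intermedius.

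Mrc1, the mannose receptor CD206, was by group mean the member with the highest level per kilobase of counted length in all 4 E18.5 groups. Its E18.5 values were 89.0, 104 and 113 CPM in gastrocnemius, 53.3, 78.5 and 121 in soleus, 69.2, 92.6 and 202 in vastus lateralis, and 84.3, 112 and 144 in vastus intermedius. Adult Mrc1 read 13.9, 17.6 and 27.3 CPM in gastrocnemius, 42.8, 46.0 and 51.7 in soleus, 10.9, 20.02 and 31.7 in vastus lateralis, and 21.8, 22.7, 25.4, 28.7 and 37.6 in vastus intermedius, with every adult library below every E18.5 library of its muscle. It fell by 2.43 ± 0.15, 0.86 ± 0.16, 2.48 ± 0.30 and 2.04 ± 0.17 (SE) on the log2 scale, with edgeR adjusted p of at most 0.000132. The smallest fall was in soleus, whose adult libraries held more Mrc1 than every other adult library.

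Set side by side per library, the class II genes and the fetal-type genes changed their proportion. Summed over Cd74, H2-Aa, H2-Ab1 and H2-Eb1, class II transcripts had medians of 1.97 CPM in gastrocnemius, 1.33 in soleus, 1.76 in vastus lateralis and 2.27 in vastus intermedius at E18.5. The adult medians were 45.0 CPM in gastrocnemius, 40.7 in soleus, 64.5 in vastus lateralis and 49.2 in vastus intermedius, and no adult library overlapped with any E18.5 library. The summed Timd4, Folr2, Cd163 and Mrc1 had medians of 112 CPM in gastrocnemius, 85.7 in soleus, 100.5 in vastus lateralis and 124 in vastus intermedius at E18.5 and of 32.6 CPM in gastrocnemius, 81.7 in soleus, 38.6 in vastus lateralis and 42.7 in vastus intermedius in adults. This sum was lower in adults without overlap in gastrocnemius, vastus lateralis and vastus intermedius, whereas in soleus the E18.5 range of 59.8 to 131 CPM contained the adult range of 63.8 to 89.3 CPM. The log2 ratio of the class II sum to the fetal-type sum ran from -7.04 to -5.13 over the E18.5 libraries and from -1.23 to 1.11 over the adult libraries. Its group means rose by 5.95, 5.16, 6.64 and 5.92 in gastrocnemius, soleus, vastus lateralis and vastus intermedius. The fetal-type sum is mostly Mrc1 and the class II sum mostly Cd74, and when each gene counted alike, as a mean of log2 values, the rise was 2.03, 1.21, 2.59 and 2.25. Without Mrc1 the log2 ratio of the sums had medians of -1.98 in gastrocnemius, -2.33 in soleus, -2.53 in vastus lateralis and -2.14 in vastus intermedius at E18.5 and 1.2 in gastrocnemius, 0.483 in soleus, 1.60 in vastus lateralis and 1.30 in vastus intermedius in adults. The left-out adult vastus intermedius library had a log2 ratio of -5.94, inside the E18.5 range.

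**Figure D3:**
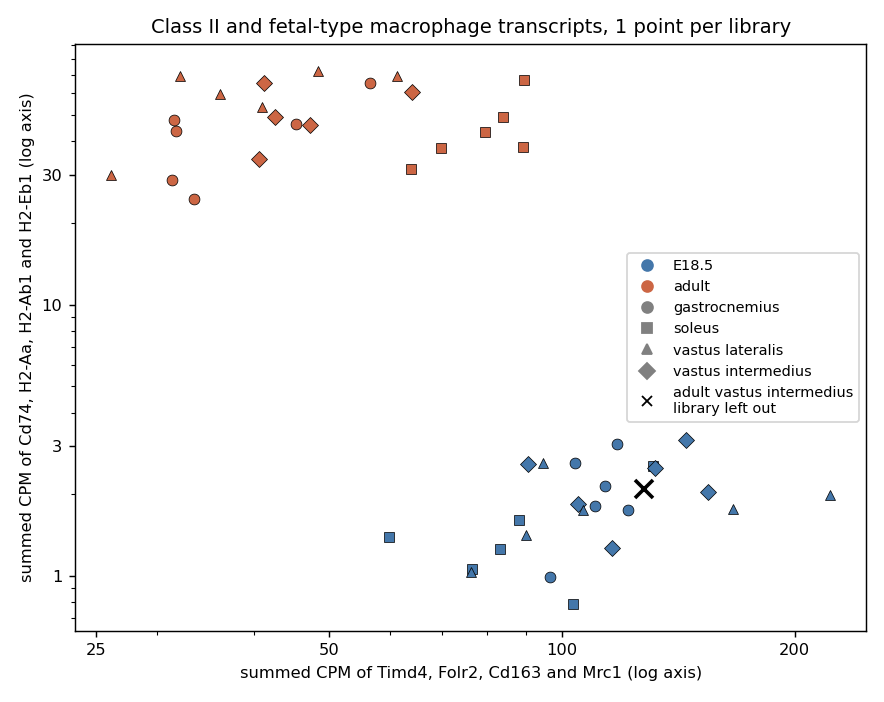
Summed CPM of the 4 class II genes against summed CPM of Timd4, Folr2, Cd163 and Mrc1, both on log axes, with 1 point per library, colour for stage and shape for muscle. The adult libraries start at 24.5 CPM and the E18.5 libraries end at 3.18 CPM on the class II axis, the adult soleus squares start at 63.8 CPM on the other axis, where all but 1 of the other kept adult points (vastus intermedius C at 64.1 CPM) lie further left, and the cross marks the left-out library among the E18.5 points.

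Of the 13 general macrophage genes, 1, 4, 1 and 2 were called higher in adults and 10, 4, 10 and 8 lower in gastrocnemius, soleus, vastus lateralis and vastus intermedius. Over all genes tested, 38.2%, 36.3%, 36.4% and 36.9% were called higher and 44%, 39.7%, 42.6% and 39.2% lower. The median log2 changes of the 13 genes were -1.21, -0.31, -1.39 and -0.75. Csf1r, the receptor on which macrophage survival depends, read 31.8, 35.5 and 42.0 CPM in gastrocnemius, 23.7, 33.2 and 45.6 in soleus, 24.5, 34.2 and 76.1 in vastus lateralis, and 31.8, 40.6 and 55.2 in vastus intermedius at E18.5. Adult Csf1r read 13.5, 23.3 and 32.2 CPM in gastrocnemius, 37.2, 51.4 and 55.4 in soleus, 8.38, 27 and 39 in vastus lateralis, and 27.3, 30.7, 30.9, 32.1 and 44.9 in vastus intermedius. The ranges overlapped in all 4 muscles, though in gastrocnemius by only 1 adult library, which at 32.2 CPM reached the lowest E18.5 value. Its log2 fold change was -0.70 ± 0.16 (SE, edgeR adjusted p = 0.00095) in gastrocnemius and 0.53 ± 0.14 (SE, edgeR adjusted p = 0.00397) in soleus, in opposite directions, and did not pass in vastus lateralis (-0.74, edgeR adjusted p = 0.0523) or vastus intermedius (-0.31, edgeR adjusted p = 0.0883). Under scaling by total counts alone the soleus value was -0.17, so its direction depends on the scaling. Ptprc, the pan-leukocyte phosphatase CD45, read 3.09, 4.81 and 6.12 CPM in gastrocnemius, 2.62, 3.80 and 7.52 in soleus, 2.42, 4.14 and 9.95 in vastus lateralis, and 2.81, 3.92 and 5.78 in vastus intermedius at E18.5. Adult Ptprc read 1.25, 2.21 and 6.15 CPM in gastrocnemius, 3.98, 6.8 and 8.74 in soleus, 0.892, 2.52 and 3.73 in vastus lateralis, and 3.52, 4.76, 4.88, 5.14 and 5.77 in vastus intermedius. The ranges overlapped in every muscle, and a change was called only in vastus lateralis, at -1.04 ± 0.39 (SE, edgeR adjusted p = 0.0234). Without the E18.5 library E it was -0.72, with an edgeR adjusted p of 0.0752, and without the E18.5 libraries B and E of that muscle it was -0.60, with an edgeR adjusted p of 0.164.

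Cx3cr1, the fractalkine receptor, had the largest fall of any member in each muscle, with log2 fold changes of -4.66 ± 0.39, -3.26 ± 0.31, -6.24 ± 0.42 and -3.83 ± 0.47 (SE). E18.5 values ran from 8.54 to 25.5 CPM over the 4 muscles and adult values from 0 to 3.63 CPM, without overlap. Adgre1, which encodes the macrophage surface protein F4/80, changed by -1.48 in gastrocnemius, -0.59 in soleus, -1.55 in vastus lateralis and -1.14 in vastus intermedius on the log2 scale, and the Fc receptor gene Fcgr1 by -2.17 in gastrocnemius, -1.10 in soleus, -2.10 in vastus lateralis and -1.66 in vastus intermedius, each of them called lower in all 4. In soleus the fall of Fcgr1 was at edgeR adjusted p = 0.0293 and was lost without any 1 of 5 libraries (adult A or B, E18.5 A, B or D), with adjusted p of up to 0.0847. Aif1, an actin-binding protein of macrophages, was also lower in all 4, with log2 changes of -1.67 in gastrocnemius, -1.40 in soleus, -1.20 in vastus lateralis and -1.15 in vastus intermedius. The Fc receptor Fcgr3, the signalling adaptors Fcer1g and Tyrobp and the lysosomal protein Laptm5 fell in gastrocnemius, vastus lateralis and vastus intermedius and did not pass in soleus, where their log2 changes were -0.31, -0.35, -0.57 and -0.09. Mast cells also carry Fcer1g and Fcgr3, and 5, 4, 5 and 4 of 5 mast cell markers tested fell in gastrocnemius, soleus, vastus lateralis and vastus intermedius, with median log2 changes of -4.68, -2.62, -5.47 and -3.72. Of all genes tested, 44%, 39.7%, 42.6% and 39.2% were called lower. The 7 markers on that list summed to 9.92 to 553 CPM over the E18.5 libraries and 4.37 to 64.3 CPM over the kept adult libraries. Their part in the changes of Fcer1g and Fcgr3 was not tested. Cd68, a lysosomal glycoprotein, changed by -1.21 in gastrocnemius, 0.42 in soleus, -1.46 in vastus lateralis and -0.15 in vastus intermedius, called lower in both fast-biased muscles and higher in soleus. Under total-count scaling the soleus value of Cd68 was -0.27. Itgam, the integrin CD11b of myeloid cells, rose in soleus (1.51) and vastus intermedius (0.74), the latter at -0.0199 under total counts.

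Lyz2, the macrophage lysozyme, was the only general macrophage gene of the 13 that rose in all 4 muscles, by 1.80 in gastrocnemius, 2.67 in soleus, 0.98 in vastus lateralis and 2.24 in vastus intermedius on the log2 scale. E18.5 values lay between 7.24 and 27.5 CPM and adult values between 15.6 and 90.4 CPM. In vastus lateralis the ranges overlapped and the value was -0.07 under total-count scaling. The paralog Lyz1 is so similar that the counting may have divided reads between the pair, and Lyz1 itself was at 0.00873 CPM in E18.5 soleus and 3.54 CPM in adult soleus, on average.

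The 3 C1q genes, whose products form the first component of the classical complement pathway, lie within 18.7 kb of chromosome 4. C1qa read 12.5, 13.0 and 15.5 CPM in gastrocnemius, 9.95, 14.6 and 18.8 in soleus, 9.78, 13.8 and 22.1 in vastus lateralis, and 10.6, 14.4 and 17.5 in vastus intermedius at E18.5. Adult C1qa read 10.04, 14 and 21 CPM in gastrocnemius, 18.9, 24.8 and 31.7 in soleus, 6.2, 14.7 and 23.2 in vastus lateralis, and 15.7, 16.7, 19.3, 20.4 and 21.5 in vastus intermedius. Only in soleus did the adult libraries all reach or pass the top of the E18.5 range, and C1qa was called higher there, by 0.81 ± 0.17 (SE, edgeR adjusted p = 0.000418), and in vastus intermedius, by 0.42 ± 0.13 (SE, edgeR adjusted p = 0.0112). Total-count scaling gave 0.11 in soleus and -0.34 in vastus intermedius. C1qc changed by -0.39 in gastrocnemius, 0.39 in soleus, -0.55 in vastus lateralis and -0.17 in vastus intermedius, called lower in gastrocnemius and higher in soleus, the latter at -0.31 under total counts. The soleus call of C1qc, at edgeR adjusted p = 0.0445, was lost without any 1 of 6 libraries (adult D, E or F, E18.5 A, D or E), with adjusted p of up to 0.115. C1qb was called in no muscle, with log2 changes of -0.39 in gastrocnemius, 0.41 in soleus, -0.60 in vastus lateralis and -0.37 in vastus intermedius.

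Because the direction of several of these genes depended on the scaling, counts were also taken per 100 Csf1r counts of the same library, a ratio that no scaling of libraries changes. Class II counts, summed, had medians of 5.39 in gastrocnemius, 4.34 in soleus, 4.46 in vastus lateralis and 5.47 in vastus intermedius per 100 Csf1r counts at E18.5 and of 176 in gastrocnemius, 87.6 in soleus, 234 in vastus lateralis and 149 in vastus intermedius in adults. Lyz2 went from medians between 29.7 and 36.5 to medians between 133 and 164. These ratios did not overlap between stages in any muscle. Timd4, Cd163 and Folr2 were higher per Csf1r count in adults in every muscle, again without overlap, with the median of Cd163 2.7 to 4.44 times, that of Folr2 1.55 to 2.76 times and that of Timd4 5.68 to 13.0 times its E18.5 value. Mrc1 was lower, at 0.294 to 0.409 times its E18.5 median, Adgre1 at 0.454 to 0.603 times, Fcgr3 at 0.442 to 0.594 times and Cx3cr1 at 0.0162 to 0.0726 times, each without overlap in any muscle. C1qb, C1qc, Cd68, Ptprc and Csf1 kept overlapping ranges in all 4 muscles on this scale, with ratios of medians from 0.653 for Cd68 in vastus lateralis to 1.45 for Ptprc in vastus intermedius. C1qa was higher without overlap in gastrocnemius (1.67 times its E18.5 median) and vastus intermedius (1.81 times). Its ranges overlapped in soleus (1.21 times) and vastus lateralis (1.55 times).

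**Figure D4:**
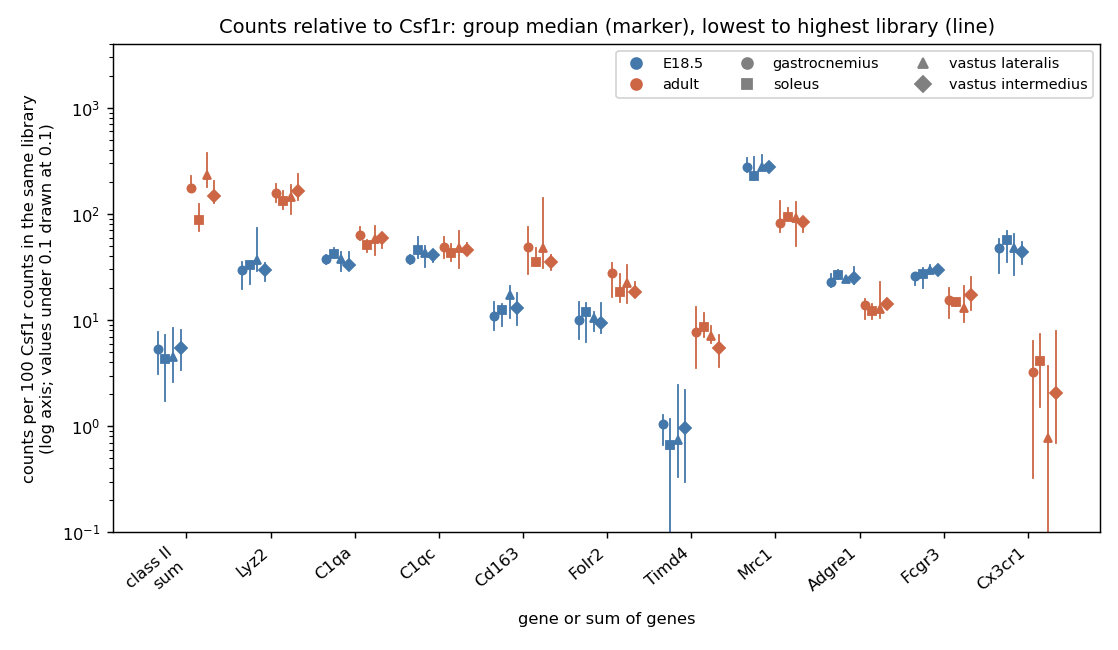
Counts of 10 genes and of the summed class II genes per 100 Csf1r counts of the same library, on a log axis, with the group median as a marker and a line from the lowest to the highest library. Class II, Lyz2, Cd163, Folr2 and Timd4 are shifted up in adults, Mrc1, Adgre1, Fcgr3 and Cx3cr1 are shifted down, and C1qc overlaps between stages. C1qa overlaps between stages in soleus and vastus lateralis but not in gastrocnemius and vastus intermedius.

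Among ligands, chemokines and monocyte genes, Retnla showed the largest difference of any member. Retnla encodes RELM-alpha, a secreted protein of alternatively activated and resident macrophages. It had 4, 0, 2 and 0 counts over the E18.5 libraries of gastrocnemius, soleus, vastus lateralis and vastus intermedius, and was at 0 in all but 3 of the 24. In adults Retnla read 17, 24.6 and 42.6 CPM in gastrocnemius, 29.5, 37.9 and 75.7 in soleus, 7.65, 28.3 and 36.8 in vastus lateralis, and 21.3, 21.9, 27.2, 30.1 and 35.4 in vastus intermedius, and per kilobase of counted length it was the highest member in adult gastrocnemius, soleus and vastus lateralis. Taken against 3 counts per E18.5 library, it was at least 325-fold higher in adult soleus and at least 164-fold higher in adult vastus intermedius. The ratio of counts per total counts was 666 in gastrocnemius (exact 95% interval 260 to 2447) and 1130 in vastus lateralis (313 to 9339), which cover counting error only. Adipocyte markers moved with Retnla in 3 of the 4 muscles, with 1 of 1, 5 of 5 and 5 of 5 tested called higher in gastrocnemius, soleus and vastus lateralis and 0 tested in vastus intermedius. In those 3 muscles 38.2%, 36.3% and 36.4% of all genes tested were called higher. The 6 markers summed to 0 to 0.376 CPM in all E18.5 libraries but vastus lateralis A and E, and to 1.34 to 489 CPM in the kept adult libraries. Vastus lateralis E, the E18.5 library with the highest adipocyte sum (28.99 CPM), had 0 Retnla counts. The part of adipocytes in the adult Retnla level was not tested.

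Csf1, the main ligand of Csf1r, read 23.8, 30.3 and 36.9 CPM in gastrocnemius, 26.2, 30.8 and 36.6 in soleus, 21.7, 28.3 and 41.1 in vastus lateralis, and 27.6, 30.2 and 39.2 in vastus intermedius at E18.5. Adult Csf1 read 18, 21.8 and 28.1 CPM in gastrocnemius, 31.4, 38.7 and 42.6 in soleus, 19.9, 27.2 and 29.9 in vastus lateralis, and 19.97, 21.9, 25.7, 36.7 and 37.7 in vastus intermedius. The ranges overlapped in every muscle, and Csf1 was called only in gastrocnemius, with a log2 change of -0.48 ± 0.12 (SE, edgeR adjusted p = 0.00157). Il34, the other ligand of the receptor and not on the list of members, rose in all 4 muscles, by 1.80 in gastrocnemius, 1.78 in soleus, 1.23 in vastus lateralis and 1.09 in vastus intermedius. Ccr2, the chemokine receptor of blood-derived monocytes, read 0.157, 0.766 and 1.445 CPM in gastrocnemius, 0.143, 0.444 and 0.865 in soleus, 0.548, 0.724 and 0.896 in vastus lateralis, and 0.423, 0.948 and 1.92 in vastus intermedius at E18.5. Adult Ccr2 read 0.440, 0.884 and 3.26 CPM in gastrocnemius, 1.63, 2.25 and 7.5 in soleus, 0.180, 0.729 and 2.10 in vastus lateralis, and 0.880, 1.18, 1.98, 2.41 and 2.89 in vastus intermedius. It was called higher in soleus alone, by 2.73 ± 0.46 (SE, edgeR adjusted p = 5.8e-05), where 1 library at 7.5 CPM stood above the rest. Its ligand gene Ccl2 was called in none of the 3 muscles in which it passed the filter, with CPM of 0 to 1.93 over all libraries kept. The neighbouring chemokine gene Ccl8 did not pass the filter: its counts were 0, 0, 3 and 4 over the E18.5 libraries of gastrocnemius, soleus, vastus lateralis and vastus intermedius and 15, 20, 32 and 11 over the adult libraries. That is a ratio per total counts of 11.2 in vastus lateralis (exact 95% interval 3.5 to 57.0) and 3.58 in vastus intermedius (1.06 to 15.4), and at least 1.14-fold higher in soleus against 3 counts per library. The highest Ccl8 value, 1.08 CPM, was in adult vastus lateralis library A.

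The adult muscles differed from one another in macrophage genes but not, by these tests, in the class II members H2-Aa, H2-Ab1 and Cd74. In the slow-biased adult muscles 17 of 26 members tested were higher than in the fast-biased ones and 0 lower, where 66% of all genes tested were called, 35.9% higher and 30.1% lower. Adult soleus had the highest mean of the 4 adult muscles for 22 of the 27 members with more than a few counts, and vastus lateralis the lowest for 16. Cd68 was higher by 1.27 ± 0.16 (SE, edgeR adjusted p = 2.4e-07), Csf1r by 0.80 ± 0.18 (SE, edgeR adjusted p = 0.000411), Ptprc by 1.09 ± 0.26 (SE, edgeR adjusted p = 0.00074) and Mrc1 by 0.84 ± 0.15 (SE, edgeR adjusted p = 1.98e-05) on the log2 scale. Cx3cr1 had the largest difference of those called, 2.04 ± 0.50 (SE, edgeR adjusted p = 0.000933), at low levels. All 3 C1q genes were higher, C1qa by 0.63, C1qb by 0.61 and C1qc by 0.74, with C1qb lost without any 1 of adult A, B, C, E or F (adjusted p of up to 0.175). Csf1 was higher by 0.45 ± 0.11 (SE, edgeR adjusted p = 0.000855). Of the fetal-type genes, Mrc1, Folr2 (0.56) and Cd163 (0.34) passed and Timd4 did not (0.58 ± 0.28, edgeR adjusted p = 0.0695). Cd163 was lost without adult C, D or E (adjusted p of up to 0.117), Folr2 without C or D (up to 0.0981) and Ccr2 without C or F (up to 0.0829).

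For the class II genes the adult slow-to-fast differences were -0.03 ± 0.18 for H2-Aa, 0.19 ± 0.26 for H2-Ab1 and -0.07 ± 0.16 for Cd74 (SE, edgeR adjusted p of 0.898, 0.519 and 0.732), so a difference of the size seen for Csf1r lay outside 2 SE of H2-Aa, H2-Ab1 and Cd74. Per 100 Csf1r counts, adult soleus held the lowest class II sum of the 4 muscles, at 68.5 to 123, below every library of gastrocnemius, vastus lateralis and vastus intermedius, which began at 162, 178 and 126. That last comparison was made after the values were seen and was not tested. Other class II pathway genes were called in both directions in the adult slow-to-fast contrast, beside 35.9% of all genes higher and 30.1% lower. H2-DMa (-0.51), Rfx5 (-0.66) and Rfxap (-0.90) were lower. Cd80 (2.62), Cd86 (1.38), Ctss (1.36), Marchf1 (1.27), Lgmn (1.05) and Rfxank (0.25) were higher, and Ciita (-0.07) and Ifi30 (0.14) were not called.

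Markers of some other cells differed in the same contrast, where 35.9% of all genes tested were called higher and 30.1% lower. All 5 mast cell markers tested, 3 of 3 erythroid markers and 6 of 6 endothelial markers had higher levels in adult soleus and vastus intermedius than in the fast-biased pair, with median log2 differences of 1.30, 1.43 and 0.78. So had 3 of 6 fibroblast markers (median 0.39) and the 1 B cell marker tested, Cd79b (2.17). Of the dendritic cell markers, Itgax (1.55) and Siglech (0.90) were higher, Xcr1 (-1.94) was lower and Clec9a, Cd209a and Zbtb46 were not called. Adipocyte markers were not called, with log2 differences from -0.98 for Cfd to 0.28 for Plin1. The mast cell markers summed to 4.37 to 64.3 CPM over the kept adult libraries, the erythroid markers to 15.9 to 190.3 CPM and the endothelial markers to 270.3 to 816 CPM. Their part in the macrophage differences was not tested.

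At E18.5 the same contrast called 0 of 24 members in either direction with edgeR, where 0.368% of all genes tested were called (0.146% higher and 0.222% lower), and 0 members had an unadjusted p under 0.05. DESeq2 and limma-voom also called 0. The largest E18.5 difference among the members was 0.31 ± 0.28 (SE) for Ccl2. Cd68 was at -0.20 ± 0.15, Csf1r at -0.03 ± 0.14 and Mrc1 at -0.17 ± 0.15. The difference between the 2 stages in this contrast was itself tested, and 13 of 27 members were higher in adults and 0 lower, where 50.8% of all genes tested were called, 26.6% higher and 24.2% lower. Cx3cr1 had the largest difference of those called, 1.88 ± 0.47 (SE, edgeR adjusted p = 0.000802). Cd68 had the smallest adjusted p, at 1.435 ± 0.23 (SE, edgeR adjusted p = 8.47e-07), and Itgam was at 1.32 ± 0.29 (SE, edgeR adjusted p = 0.000157). Ptprc was at 1.2 ± 0.34 (SE, edgeR adjusted p = 0.00295) and Laptm5 at 1.16 ± 0.30 (SE, edgeR adjusted p = 0.00143). Mrc1 gave 0.97 ± 0.22 (SE, edgeR adjusted p = 0.000208) and Csf1r 0.80 ± 0.24 (SE, edgeR adjusted p = 0.00436). For Cd74 the difference was -0.06 ± 0.26 (SE, edgeR adjusted p = 0.888). Without the E18.5 vastus lateralis libraries B and E the count was 9, with Adgre1, Csf1, C1qa and C1qc no longer called. The same 4 genes were lost without E18.5 animal E alone (adjusted p of up to 0.106), Adgre1, Csf1 and C1qc also without adult C, C1qa without adult E, C1qc and Csf1 without E18.5 A, and Csf1 without E18.5 C or D.

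**Figure D5:**
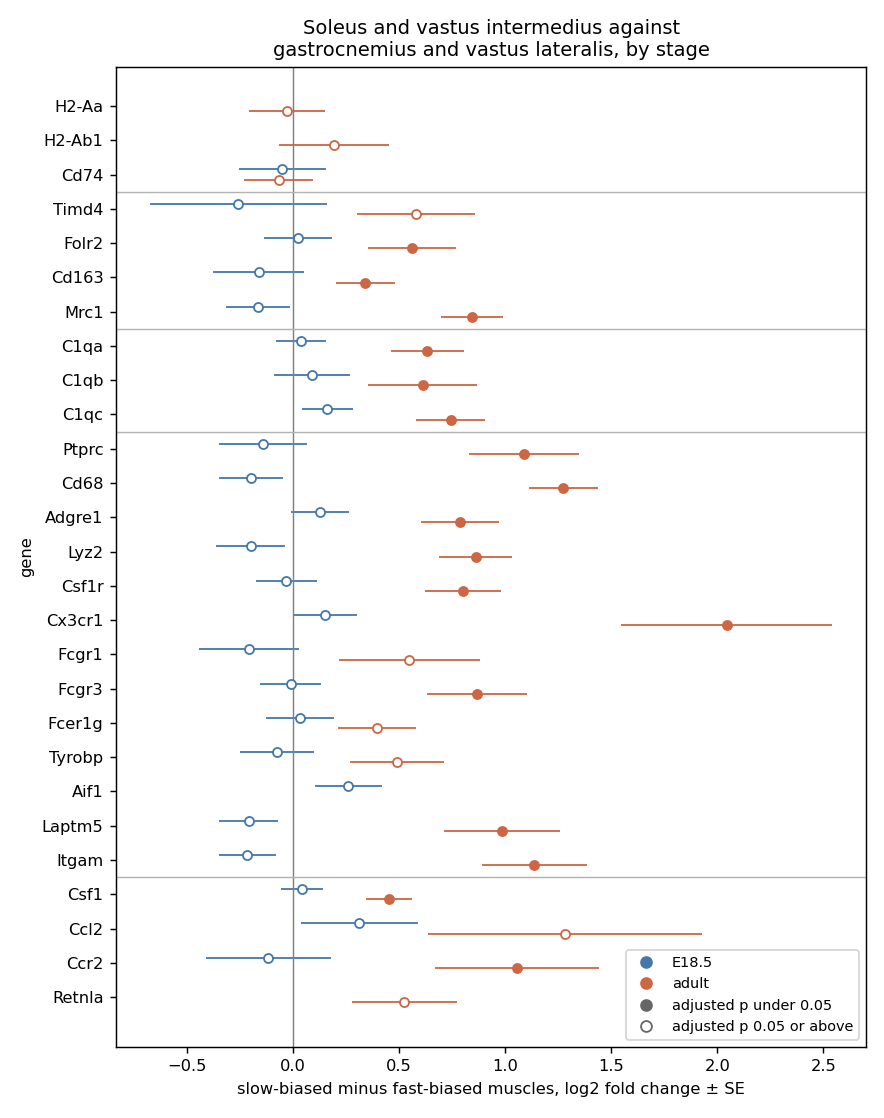
Log2 difference of the slow-biased from the fast-biased muscles, with SE bars, for each gene at E18.5 (blue) and in adults (orange), filled where the adjusted p was under 0.05. All filled points are adult and positive, the E18.5 points lie between -0.26 and 0.31, and the adult points of H2-Aa, H2-Ab1 and Cd74 lie at -0.03, 0.19 and -0.07.

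Few of these genes were called between thigh and shank. In adults 0 of 26 members were higher in the thigh and 1 lower, where 19.1% of all genes tested were called, 11.6% higher and 7.55% lower. The 1 gene was Itgam, at -0.79 ± 0.25 (SE, edgeR adjusted p = 0.0273), and with the animal as a block it gave -0.76 with an edgeR adjusted p of 0.0525. Without adult D, E or F it was also lost, with adjusted p of up to 0.190. At E18.5, 2 of 24 members were higher in the thigh and 0 lower (background 24.8%, as 14.1% and 10.7%), Cd163 at 0.60 ± 0.21 (SE, edgeR adjusted p = 0.0423) and Fcgr3 at 0.43 ± 0.14 (SE, edgeR adjusted p = 0.0305). Neither passed without the E18.5 vastus lateralis libraries B and E (edgeR adjusted p of 0.0864 and 0.106), and Cd163, in thigh minus shank at E18.5, did not pass with the replicate block (edgeR adjusted p = 0.0553). Both were also lost without animal B, E or F, and Cd163 without A or D, with adjusted p of up to 0.226.

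Other genes of the class II pathway were called in both directions. Ciita, the transactivator that switches class II genes on, was not called in any muscle, with log2 changes of 0.25 in gastrocnemius, -0.08 in soleus, -0.11 in vastus lateralis and 0.26 in vastus intermedius. Over the 16 other pathway genes on the list, 2, 3, 2 and 2 were called higher and 5, 4, 4 and 3 lower of 10, 11, 10 and 11 tested in gastrocnemius, soleus, vastus lateralis and vastus intermedius. The shares over all genes tested were 38.2%, 36.3%, 36.4% and 36.9% higher and 44%, 39.7%, 42.6% and 39.2% lower. The reductase Ifi30 was lower in all 4, with log2 changes of -0.84 in gastrocnemius, -0.54 in soleus, -1.31 in vastus lateralis and -0.67 in vastus intermedius, and the protease Lgmn fell in 3, by 1.27, 1.58 and 0.84 in gastrocnemius, vastus lateralis and vastus intermedius. Rfxap, of the RFX complex, rose in gastrocnemius (0.61) and vastus lateralis (0.80) and was called lower in soleus (-0.30). Rfx5, of the same complex, which binds the X box, fell in gastrocnemius, soleus and vastus intermedius, by 0.37, 0.77 and 0.85. The protease Ctss rose in soleus (0.95) and vastus intermedius (0.51), against the direction of Ifi30.

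Interferon gamma, which induces Ciita, has a signalling list of 10 genes, of which 9, 8, 9 and 8 of 9 tested were called higher in adults and 0 lower, beside 38.2%, 36.3%, 36.4% and 36.9% of all genes called higher. The gene not tested was Ifng itself, which did not pass the filter in any of the 4 fits and had a mean of 0 CPM in all 4 adult groups. The receptor chain Ifngr2 rose by 2.16 in gastrocnemius, 1.15 in soleus, 2.17 in vastus lateralis and 1.49 in vastus intermedius and the target Gbp2 by 1.91 in gastrocnemius, 3.06 in soleus, 2.43 in vastus lateralis and 2.95 in vastus intermedius. Class I genes, which are expressed by most cells, were called higher for 9, 9, 8 and 9 and lower for 3 in each muscle, of 13, 14, 13 and 13 tested. The shares of all genes called lower were 44%, 39.7%, 42.6% and 39.2%. H2-D1 rose by 2.09 in gastrocnemius, 2.30 in soleus, 1.85 in vastus lateralis and 2.34 in vastus intermedius and H2-K1 by 1.53 in gastrocnemius, 1.78 in soleus, 1.58 in vastus lateralis and 1.77 in vastus intermedius. Each of these changes was smaller in size than that of Cd74 in the same muscle, a comparison that was not tested, and the chaperones Pdia3, Calr and Canx fell in all 4.

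Of 18 other resident macrophage genes, 7, 8, 6 and 8 were called higher and 5, 4, 7 and 4 lower, of 16, 17, 15 and 17 tested. Over all genes tested, 38.2%, 36.3%, 36.4% and 36.9% were called higher and 44%, 39.7%, 42.6% and 39.2% lower. The lectin Cd209f rose by 4.20 in gastrocnemius, 4.94 in soleus, 4.76 in vastus lateralis and 3.05 in vastus intermedius and the carbonyl reductase Cbr2 by 4.5 in gastrocnemius, 2.86 in soleus, 4.28 in vastus lateralis and 2.12 in vastus intermedius. F13a1, the factor XIII subunit of perivascular macrophages, was lower in all 4, as Mrc1 was, with log2 changes of -2.20 in gastrocnemius, -0.74 in soleus, -2.68 in vastus lateralis and -1.99 in vastus intermedius. Of 23 other general macrophage genes, 2, 5, 0 and 4 were called higher and 13, 6, 14 and 9 lower, of 18, 19, 18 and 21 tested, with Cyba, Siglec1, Sirpa and Lcp1 lower in all 4. In the adult slow-to-fast contrast 15 of 21 of these were higher and 0 lower, beside 35.9% and 30.1% of all genes tested. The other resident macrophage genes were called in both directions in that contrast. Maf (-2.62), Cbr2 (-1.79) and Slc40a1 (-0.59) were lower. Vsig4 (2.765), Lyve1 (1.54), F13a1 (1.00), Mertk (0.94), Stab1 (0.86), Selenop (0.70) and Gas6 (0.37) were higher.

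Of 17 other chemokine genes, 5, 6, 3 and 6 were called higher in adults and 1, 1, 0 and 1 lower, of 7, 7, 6 and 7 tested. The shares over all genes tested were again 38.2%, 36.3%, 36.4% and 36.9% higher and 44%, 39.7%, 42.6% and 39.2% lower. Ccl11, which attracts eosinophils, rose by 3.45 in gastrocnemius, 4.24 in soleus, 3.57 in vastus lateralis and 4.28 in vastus intermedius, and Ccl6 by 2.62 in gastrocnemius, 3.75 in soleus, 2.56 in vastus lateralis and 2.84 in vastus intermedius. Of 8 genes of the CSF1 axis and macrophage survival, 2, 3, 1 and 2 were called higher and 2, 2, 4 and 2 lower, of 7 tested. Csf2ra, the alpha chain of the receptor for GM-CSF, was lower in all 4, with log2 changes of -2.85 in gastrocnemius, -1.56 in soleus, -1.98 in vastus lateralis and -1.33 in vastus intermedius.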

How the data were processed

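Polyadenylated RNA from 4 muscles of 6 E18.5 and 6 adult mice was sequenced. Reads were aligned to mm10 with STAR 2.7.11 and counted with featureCounts (Subread 2.0.6), and the authors also list Trimmomatic 0.39.0, FastQC 0.11.5 and DESeq2 1.44.0, per the submitters' processing notes. Which annotation and strand setting were used is not stated in the labels. The deposited table holds raw counts per gene and the authors' gene length in bases, and a deposited comparison table holds log2 fold changes and adjusted p-values.

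Columns carry no animal number, so the date tag in their names was used as the animal and lettered A to F within a stage. After removal of group means, libraries with the same tag had a mean correlation of 0.178 (E18.5) and 0.103 (adult), against -0.0354 and -0.0208 for other pairs. Whether p-values reflect more than the spread between these animals was not tested.

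Counts were tested with edgeR 4.0.16 in R 4.3.3 (TMM, filterByExpr, quasi-likelihood F test, Benjamini-Hochberg adjustment over all genes tested, threshold 0.05). Each stage comparison was fitted within 1 muscle, and the slow-to-fast and thigh-to-shank contrasts within 1 stage. The test of their difference used 47 libraries. Neither these contrasts nor their difference had a term for the animal in the main fits, although each animal gave 4 muscles. For the E18.5 slow-to-fast contrast, 58 of 15751 genes tested were called without such a term. With the animal as a block, 213 of 16412 were called. The SE was derived from the fold change and its F value. On simulated data for the soleus stage comparison with 14865 genes, 70% of 2-fold and 100% of 4-fold changes were recovered, and for the adult slow-to-fast contrast with 14304 genes 98% and 100%. The changed genes were drawn from the more abundant genes of each fit, and all genes had the same dispersion. Recovery was therefore not measured for genes with low counts. Alternatives were DESeq2 1.42.0, limma-voom (limma 3.58.1), other scalings, no filter, the animal as a block, leaving out each animal, and inclusion of the left-out library. The omission of 2 E18.5 vastus lateralis libraries was chosen after seeing the data. The members and gene lists were chosen with earlier results of these data known. All matched members are described, 15 of them with full values, and other lists by up to 4 genes with the smallest median adjusted p over the 4 stage comparisons, plus genes called against the rest of their list. Some genes that this rule names are not reported here.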

Additional observations from a re-analysis of the deposited data

Results flagged for a closer look

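In 11 of 146 tests, each of 1 gene or sum in 1 group, 1 library stood apart from the others of its group. Chance alone gives about 1 in 20, and the tests share libraries, so they are not independent. The libraries apart were E18.5 gastrocnemius C for H2-Aa (0.659 CPM) and E for C1qa (15.5 CPM), and E18.5 vastus lateralis C for H2-Eb1 (0.0686 CPM), A for Retnla (0.0533 CPM) and E for Csf1r (76.1 CPM) and Ptprc (9.95 CPM). The others were E18.5 vastus intermedius B for Ccl8 (0.107 CPM), adult vastus lateralis A for Ccl8 (1.08 CPM), adult soleus F for Ccr2 (7.5 CPM), and adult vastus intermedius C for Csf1r (44.9 CPM) and for the fetal-type sum (64.1 CPM). The values of H2-Eb1, Retnla and Ccl8 at E18.5 rest on a few counts.

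The slow-to-fast difference was larger in adults than at E18.5 for 13 genes in edgeR's test of that difference. On the log2 scale it was larger by 1.88 for Cx3cr1, 1.435 for Cd68, 1.32 for Itgam, 1.2 for Ptprc, 1.16 for Laptm5 and 1.03 for Lyz2. It was larger by 0.97 for Mrc1, 0.84 for Fcgr3, 0.80 for Csf1r, 0.62 for Adgre1, 0.56 for C1qa, 0.55 for C1qc and 0.37 for Csf1.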

How the results depend on the processing

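Over all alternatives, 3712 values of single genes kept their direction and side of the threshold, 119 gained a call, 74 lost one and 13 reversed. All 13 reversals came from scaling by total counts without TMM, which moves the median of all genes to -1.21, -0.75, -1.20 and -0.80 in gastrocnemius, soleus, vastus lateralis and vastus intermedius, so changes are best read relative to it. They were C1qa -1.014, Itgam -0.79 and Folr2 -0.41 in gastrocnemius, Cd68 -0.27, Csf1r -0.17, Csf1 -0.46 and C1qc -0.31 in soleus, Lyz2 -0.0734 and Cd163 -0.12 in vastus lateralis, and Ptprc -0.55, C1qa -0.34, Itgam -0.0199 and Folr2 -0.0175 in vastus intermedius. That scaling also gave 10 members lower in soleus, 4 higher and 17 lower in vastus lateralis, 6 higher and 15 lower in vastus intermedius, 6 lower in the adult thigh, 0 higher in the E18.5 thigh and 21 higher in the difference between stages. For the adult thigh, DESeq2 gave 2 lower and the replicate block 0. For the E18.5 thigh, no filter gave 1 higher, limma-voom 0, the block 1 and the omission of vastus lateralis B and E 0. The mean of gene-wise log2 values in place of the sums gave 2.03, 1.21, 2.59 and 2.25. The replicate block gave 14 in the difference between stages.

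Leaving out 1 animal at a time gave 8 to 9 members higher and 13 to 15 lower in gastrocnemius, 13 to 16 and 4 to 6 in soleus, 7 to 7 and 10 to 14 in vastus lateralis, and 10 to 11 and 9 to 10 in vastus intermedius. It gave 13 to 19 higher and 0 lower in the adult slow-to-fast contrast, 0 at E18.5, 0 to 2 higher and 0 to 4 lower in the adult thigh, 0 to 3 higher in the E18.5 thigh, and 9 to 14 higher in the difference between stages. Levels at or under 3 counts per library limit H2-Eb1, Ccl8, and H2-Aa and H2-Ab1 at E18.5.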
